A study of Mus musculus with 6 samples.

Results

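The integrin subunit genes, Itga1, Itga2, Itga3, Itga5, Itga6, Itgav, Itgb1, Itgb3, Itgb4 and Itgb5, were read by symbol from a count table of 24421 genes. They are the 10 subunits of the main collagen, laminin, fibronectin and vitronectin receptors of endothelium. All 10 of 10 were in the table and all 10 passed the filter on low counts, as did 12753 genes in all. The RNA came from brain-derived mouse endothelial cells, the lining cells of blood vessels, grown in serum-containing medium and collected by cell sorting 6 days into co-culture with a vascular niche. The labels put 3 libraries in a Fli-1 knockout group and 3 in a wild-type (WT) group, each numbered 1 to 3. Deletion of Fli1, which encodes an ETS-family transcription factor, was induced with 4-OHT (4-hydroxytamoxifen). The 4-OHT treatment text stands on the wild-type samples too, and whether wild-type cells received it is not given in the sources used here, nor are the recombinase, its promoter or the deleted exons. Nothing says that replicates were separate cultures or mice, so p-values measure only the spread between these libraries, which may be technical.

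Integrins are cell surface receptors made of an alpha and a beta subunit, through which cells hold on to the extracellular matrix and sense it. In endothelium they anchor cells to the basement membrane and take part in vessel sprouting. The alpha subunits encoded by Itga1 and Itga2 pair with that of Itgb1 to bind collagens. Those of Itga3 and Itga6 pair with Itgb1 to bind laminins, and the Itga6 product also pairs with that of Itgb4, the laminin receptor of hemidesmosomes. The Itga5 product with that of Itgb1 forms the main fibronectin receptor, and the Itgav product pairs with those of Itgb3 or Itgb5 to bind vitronectin and other ligands that carry an Arg-Gly-Asp (RGD) motif.

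Library totals ranged from 17550185 to 21385951 counts, and the 10 subunits took 0.519% to 0.558% of them. All 12 endothelial markers, among them Pecam1 and Cdh5, passed the filter, with summed levels of 15997 to 17851 CPM (read counts normalised to library size, with TMM scaling) in knockout-labelled libraries and 15128 to 16709 CPM in wild-type-labelled ones. Fli1 itself went against its labels, at 76.8, 111 and 77.4 CPM in knockout-labelled libraries and 45.3, 59.6 and 45.8 CPM in wild-type-labelled ones. A count per gene includes exons outside a deleted part, so these values do not check the deletion. Directions are throughout those of knockout-labelled relative to wild-type-labelled libraries.

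Without regard to the replicate numbers, edgeR called 0 of the 10 subunits higher and 0 lower at a false discovery rate of 0.05, against 0% and 0.00784% of all genes tested. At an unadjusted p under 0.05, 611 of the 12753 genes tested passed, and Itga2 and Itgav were the subunits among them. Such a list, taken without adjustment, includes genes that pass by chance. With the replicate number as a block (the paired test), 3 of 10 subunits were called higher, namely Itga2, Itgav and Itgb3, and 1 of 10, Itgb5, lower, against 4.81% and 4.01% of all genes tested. The labels give the replicate numbers but state no pairing, and treating equal numbers as pairs was read from the data. The paired test had 2 residual degrees of freedom, so its small p-values rest on a spread pooled over genes. The median paired log2 fold change was 0.04 over the 10 subunits and -0.0033 over all genes tested. The change was positive in 3 of 3 pairs for 4 subunits and negative in 3 of 3 for 1, against 20.5% and 20.2% of all genes tested. The libraries of the groups did not overlap for 2 subunits, both above wild-type, whereas 5.25% of all genes tested lay wholly above and 4.96% wholly below.

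**Figure D1:**
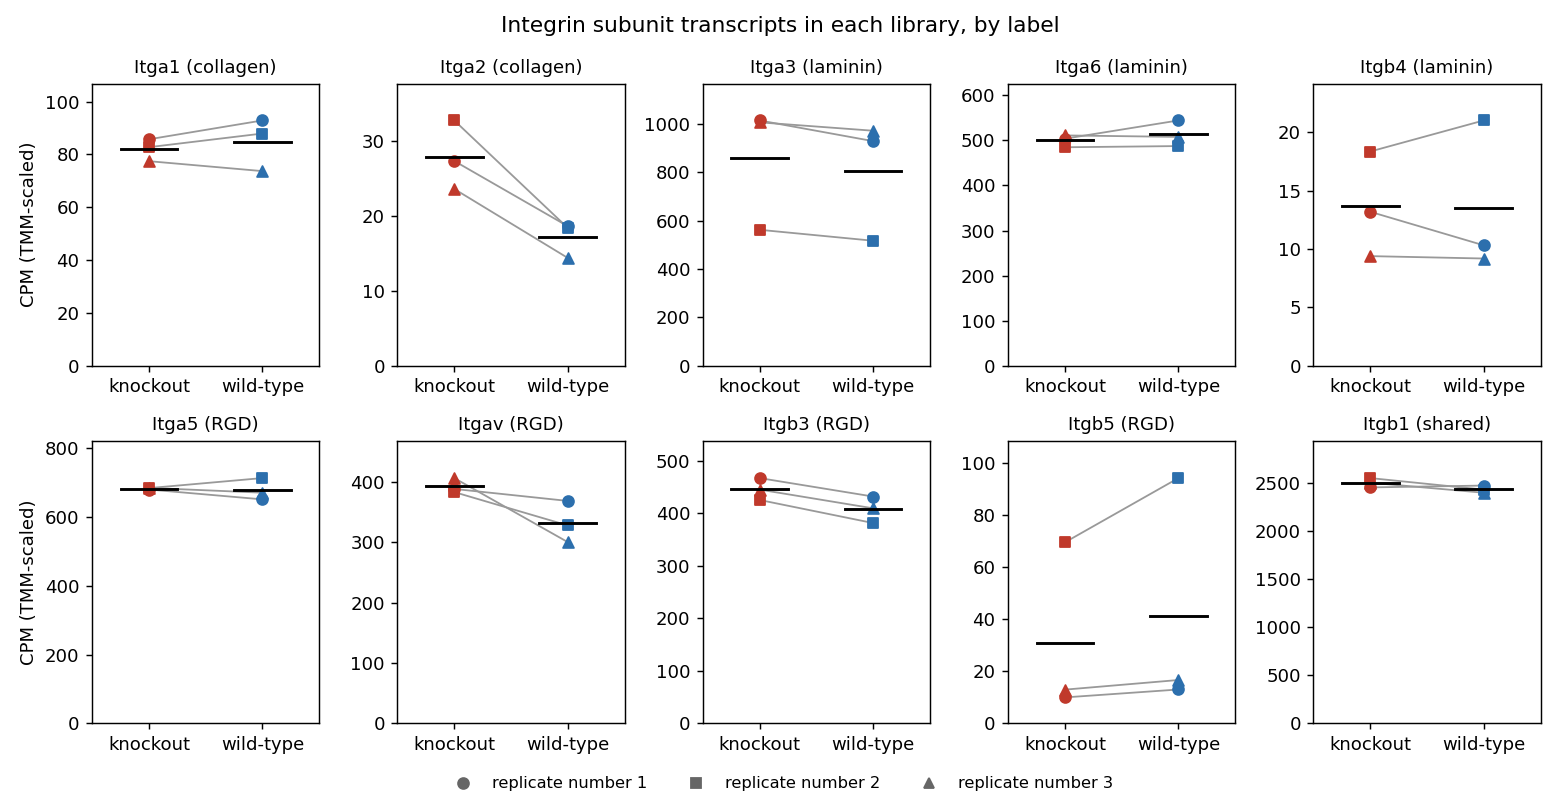
Level of each subunit in each library (y axis, TMM-scaled CPM, starting at 0; x axis, label), with grey lines joining libraries of the same number and black bars at the group means. Itga2 and Itgav are the subunits whose knockout-labelled libraries all lie above the wild-type-labelled ones, and Itgb5 and Itga3 differ most visibly between replicate number 2 and the other numbers.

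The collagen receptor subunits are encoded side by side. Itga2 (ENSMUSG00000015533) lies on GRCm38 chromosome 13 from 114833081 to 114932100 and Itga1 (ENSMUSG00000042284) from 114953096 to 115101964, both on the minus strand with 20995 bases between them. Their promoter windows run from 250 bases before to 50 after the RefSeq start on GRCm38.p6. The windows are shown because these neighbours had different values in the comparison and because the labels name Fli1 as knocked out. Its product belongs to the ETS family, whose core motif is GGAA. Capitals mark GGAA on either strand (TTCC on the strand shown), and both sequences run 5′ to 3′ on the gene's strand. They lie at chr13:114932051-114932350 and chr13:115101915-115102214.
Itga2: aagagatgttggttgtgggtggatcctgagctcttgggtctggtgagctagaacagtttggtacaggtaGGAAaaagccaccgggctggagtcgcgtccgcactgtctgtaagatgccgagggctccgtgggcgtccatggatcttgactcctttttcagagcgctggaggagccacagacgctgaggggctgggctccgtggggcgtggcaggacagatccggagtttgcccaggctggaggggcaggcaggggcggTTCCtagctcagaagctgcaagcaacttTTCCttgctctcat
Itga1: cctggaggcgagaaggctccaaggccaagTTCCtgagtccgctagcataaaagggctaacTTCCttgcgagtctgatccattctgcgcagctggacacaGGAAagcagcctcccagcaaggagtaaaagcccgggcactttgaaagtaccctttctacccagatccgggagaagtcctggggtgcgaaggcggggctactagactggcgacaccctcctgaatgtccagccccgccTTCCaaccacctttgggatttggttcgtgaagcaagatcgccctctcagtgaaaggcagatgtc
The Itga2 window held 3 GGAA cores and the Itga1 window 4, and 96% of 32851 RefSeq promoter windows of this length held at least 1. The longer ETS motif CCGGAA, which contains GGAA, was in neither window and in 14.9% of all. The GC-box motif GGGCGG occurred 1 time in the Itga2 window and 0 times in the Itga1 window, and was found in 35.7% of all windows. RefSeq windows were matched for 7 of the 10 subunits, 8 windows in all. Of these, 2 held CCGGAA, 1 of Itga3 and 1 of Itgb1, and 1, of Itga3, held the AP-1 motif TGANTCA, found in 7.81% of all windows. All motifs were searched on both strands. A match describes letters only and is not evidence of a binding site.

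Itga2, whose product gives the collagen receptor its ligand-binding alpha subunit, had the largest log2 fold change of the 10 in absolute size. It stood at 27.3, 32.7 and 23.6 CPM in knockout-labelled libraries, against 18.6, 18.4 and 14.4 CPM in wild-type-labelled ones. Every knockout-labelled library was above every wild-type-labelled one. The means were 27.9 ± 4.59 CPM for the knockout label and 17.1 ± 2.38 CPM for wild-type (SD, n = 3 each), and 282 to 612 reads lay behind each value. The log2 fold change was 0.70 ± 0.15 (SE) without the block, with a 95% interval of 0.34 to 1.06 and an adjusted p of 0.877 in edgeR. In the paired test the change was 0.70 ± 0.077 (SE), a 1.62-fold difference with a 95% interval of 1.46 to 1.81 and an adjusted p of 5.5e-09. DESeq2 without the block placed Itga2 at an adjusted p of 0.0498, near its threshold, where it called 0.104% of genes higher. The 3 pairs gave 0.55, 0.83 and 0.71 on the log2 scale.

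Itga1, the other collagen-binding alpha subunit, stood at 85.8, 82.8 and 77.5 CPM in knockout-labelled libraries and 92.9, 87.9 and 73.7 CPM in wild-type-labelled ones. The groups overlapped, and the pairs differed in sign, at -0.12, -0.087 and 0.072 on the log2 scale. The paired log2 fold change was -0.047, with a 95% interval of -0.15 to 0.052 and an adjusted p of 0.653. A protein-coding gene on the same strand, Gm49395, overlaps 3.68% of the Itga1 exon bases and had no row in the table. The ratio of Itga2 to Itga1 within a library, both per kilobase of exon, was 0.831, 1.03 and 0.794 in knockout-labelled libraries and 0.523, 0.545 and 0.509 in wild-type-labelled ones. This ratio did not overlap between groups. Its two-sided exact permutation p was 0.1, the smallest that 3 against 3 libraries allow, and 0.8 after adjustment over the 8 ratios computed. The size of the ratio, though not its order over libraries, depends on the length used. Exon lengths were 18599 bases for Itga1 and 7133 for Itga2, and longest transcripts 10967 and 7108.

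The 6 markers of dividing cells moved in the same direction as Itga2. All 6, among them Mki67 and Top2a, were called higher in the paired test, against 4.81% of all genes tested. The summed level of the 6 was 189, 253 and 320 CPM in knockout-labelled libraries and 110, 134 and 169 CPM in wild-type-labelled ones. Within the knockout-labelled group the marker sum was highest in replicate 3, where Itga2 was lowest. Platelets also express Itga2 and Itgb3. The 8 platelet markers summed to 3.57, 4.81 and 4.06 CPM in knockout-labelled libraries and 4.30, 6.79 and 3.88 CPM in wild-type-labelled ones. Gp6 and Treml1 had 0 reads in every library and Gp9 had 0 to 2. Of 3 tested platelet markers 0 were called, against 4.81% higher and 4.01% lower over all genes tested, so this count says little. The part of dividing cells in the Itga2 difference was not tested.

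The genes most like Itga2 were sought among 8976 tested genes with a mean of at least 10 CPM, by the Pearson correlation of log2 CPM over the 6 libraries. Anp32e, a histone chaperone, came first at 0.989, followed by Med14, a Mediator subunit, at 0.979, Hmgb1, a chromatin protein, at 0.964, and Trmt2b and Tmem180 at 0.963 each. These values describe 6 libraries that share labels and replicate numbers. Itga2 itself separated the labels, so genes picked for likeness to it were bound to tend the same way. Their group means are description and not a separate result. Anp32e averaged 90.5 ± 3.54 CPM in knockout-labelled libraries and 80.5 ± 2.78 CPM in wild-type-labelled ones (SD, n = 3 each), and Med14 averaged 58.3 ± 2.59 CPM in the knockout-labelled group and 45.5 ± 3.72 CPM in the wild-type-labelled group.

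Of the 4 subunits that bind fibronectin, vitronectin or other RGD ligands, Itgav and Itgb3 were called higher and Itgb5 lower in the paired test, and Itga5 was not called. Itgav (GRCm38 chromosome 2, 83724397 to 83806916) encodes the alpha subunit common to the vitronectin receptors. It stood at 389, 384 and 407 CPM in knockout-labelled libraries, against 369, 328 and 301 CPM in wild-type-labelled ones, and the groups did not overlap. The means were 393 ± 12.2 CPM for the knockout label and 333 ± 34.3 CPM for wild-type (SD, n = 3 each). The log2 fold change was 0.24 ± 0.084 (SE) without the block, with an adjusted p of 0.976, and 0.24 ± 0.050 in the paired test (adjusted p = 0.0019), with a 95% interval of 0.14 to 0.35. The pairs gave 0.076, 0.22 and 0.44, so pair 3 had the largest difference; without pair 3 the paired value was 0.15 (adjusted p = 0.0374). DESeq2 with the block did not call it, with an adjusted p of 0.212. A non-coding gene on the opposite strand, Gm13684, overlaps 5.9% of the Itgav exon bases, and the sources used here do not say whether reads were counted by strand.

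Itgb3 (GRCm38 chromosome 11, 104608000 to 104670476), which encodes the beta subunit of the classical vitronectin receptor, stood at 467, 426 and 445 CPM in knockout-labelled libraries and 432, 382 and 410 CPM in wild-type-labelled ones. The groups overlapped, since knockout replicate 2 was below wild-type replicate 1. Each knockout-labelled library was above the wild-type-labelled library of its number, by 0.11, 0.16 and 0.12 on the log2 scale. The log2 fold change was 0.13 ± 0.040 (SE) when paired (adjusted p = 0.0318) and 0.13 ± 0.071 without the block (adjusted p = 0.996). The call ended without pair 2 (0.11, adjusted p = 0.428), without pair 3 (0.14, adjusted p = 0.069), with scaling by library size alone (0.10, adjusted p = 0.101) and with DESeq2 (0.13, adjusted p = 0.0805).

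Itgb5 (GRCm38 chromosome 16, 33829665 to 33949338), the other vitronectin receptor beta subunit, separated by replicate number far more than by label. It stood at 9.99, 69.6 and 12.98 CPM in knockout-labelled libraries and 13.03, 94.3 and 16.7 CPM in wild-type-labelled ones. Both libraries numbered 2 were high, and the highest library held 9.43 times the level of the lowest. Within pairs Itgb5 was lower in the knockout-labelled library by similar amounts, with log2 ratios of -0.38, -0.44 and -0.36. When paired, the log2 fold change was -0.41 ± 0.068 (SE, adjusted p = 2.5e-05), and -0.37 without pair 2 (adjusted p = 0.047). Without the block the value was -0.42 ± 1.152 (SE, adjusted p = 0.996).

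The libraries with the most Itgb5 were also those with the most fibroblast transcripts, which connective tissue cells make. The 13 fibroblast markers summed to 131, 1005 and 433 CPM in knockout-labelled libraries and 188, 1418 and 468 CPM in wild-type-labelled ones, lower in the knockout-labelled library of every pair. Of 9 tested fibroblast markers, 4 were called lower in the paired test, Col1a1, Col3a1, Mfap5 and Fap, and 1, Dcn, higher. The shares over all genes tested were 4.01% lower and 4.81% higher. Dcn was higher in 1 of 3 pairs, with 387 reads in knockout replicate 2 against 280 in wild-type replicate 2 and at most 24 in any other library. Without pair 2, 3 fibroblast markers were called lower and 0 higher, and with scaling by library size alone 4 lower and 0 higher. Calls over all genes changed too, from 613 higher and 511 lower to 339 and 205 without pair 2. With library size alone they were 471 and 734. None of the 13 was at 0 reads in all libraries, but 4 failed the filter, and Dpt, Lum and Pi16 had at most 3 reads in any. Col1a1, Col1a2, Col3a1 and Col6a3 made up most of the sum in every library. Of the tested markers, 5 were lower in 3 of 3 pairs, and 2, Pdgfra and Fbln1, were higher in 3 of 3 but not called. The same-sign shares over all genes tested were 20.2% lower and 20.5% higher. The ratio of Itgb5 to this sum was 0.0761, 0.0692 and 0.0300 in knockout-labelled libraries and 0.0694, 0.0665 and 0.0356 in wild-type-labelled ones. The pairs of this ratio gave 0.13, 0.058 and -0.25 on the log2 scale, and the groups overlapped. The 13 mural cell markers, of pericytes and smooth muscle, summed to 1446, 1889 and 1896 CPM in knockout-labelled libraries and 1427, 2260 and 1597 CPM in wild-type-labelled ones. Tagln and Acta2 made up most of this sum, which was lower in the knockout-labelled library of pair 2 only. Of 10 tested, 3 were called lower, Pdgfrb, Cspg4 and Notch3, and 0 higher, against 4.01% and 4.81% of all genes tested. In pair 3, however, Pdgfrb and Cspg4 were higher in the knockout-labelled library (0.15 and 0.064 on the log2 scale). Of the tested markers, 2 were lower in 3 of 3 pairs and 1, Rgs5, was higher in 3 of 3. Over all genes tested these shares were 20.2% and 20.5%. In pair 1, Rgs5 had only 1 read in the knockout-labelled library and 0 in the wild-type-labelled one. In bulk samples fewer cells of a type and less RNA per cell cannot be told apart. The part of fibroblasts and mural cells in the Itgb5 difference was not tested.

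**Figure D2:**
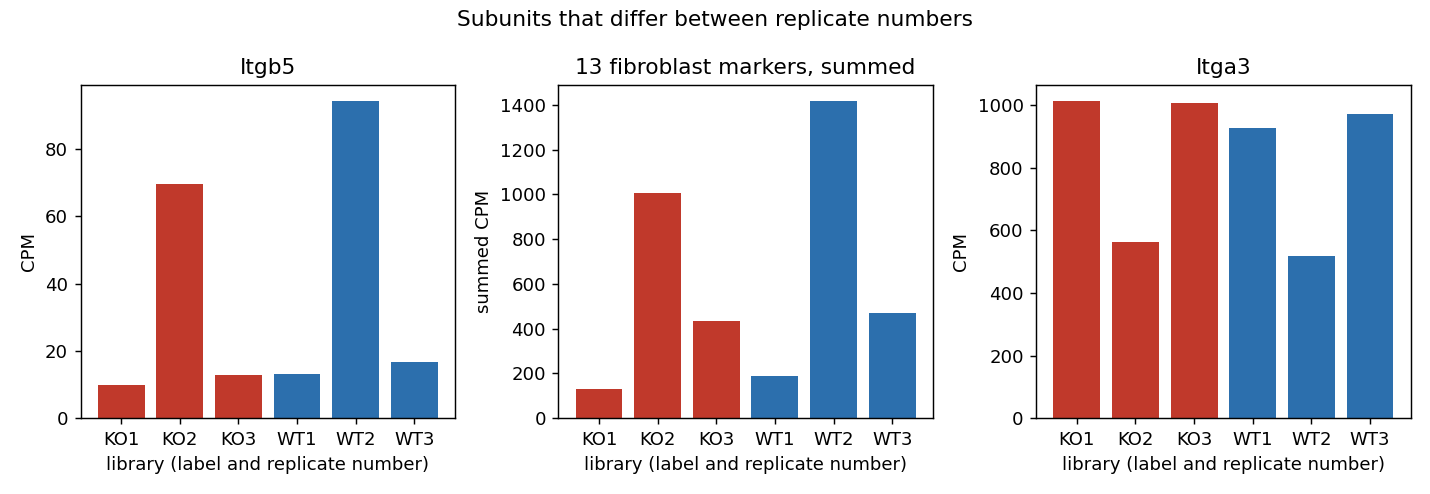
Bars give Itgb5 (left, CPM), the sum of 13 fibroblast markers (middle, CPM) and Itga3 (right, CPM) in each library, KO for knockout-labelled and WT for wild-type-labelled. Itgb5 and the fibroblast sum are highest in both libraries numbered 2, where Itga3 is lowest.

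Itga5, the alpha subunit of the main fibronectin receptor, had closely similar levels in all libraries, at 679, 683 and 684 CPM in knockout-labelled ones and 650, 712 and 670 CPM in wild-type-labelled ones. Its paired log2 fold change was 0.010, with a 95% interval of -0.071 to 0.092 and an adjusted p of 0.925. With scaling by library size alone its sign turned, at -0.016. The ratio of Itga5 to Itgav per kilobase was 3.804, 3.88 and 3.66 in knockout-labelled libraries and 3.84, 4.73 and 4.85 in wild-type-labelled ones, lower in the knockout-labelled library of each pair (log2 differences -0.014, -0.28 and -0.41). The groups overlapped (two-sided exact permutation p = 0.2).

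None of the 3 laminin-binding subunits was called in either direction. Itga3 stood at 1014, 562 and 1006 CPM in knockout-labelled libraries and 929, 517 and 972 CPM in wild-type-labelled ones. As with Itgb5, the replicate numbers separated more than the groups did, but here both libraries numbered 2 were low. Within pairs the knockout-labelled library was higher by 0.13, 0.12 and 0.051 on the log2 scale, and the paired value of 0.099 had an adjusted p of 0.127 and a 95% interval of 0.018 to 0.18. Itga6, its fellow laminin receptor alpha subunit, stood at 504, 485 and 511 CPM in knockout-labelled libraries and 544, 487 and 508 CPM in wild-type-labelled ones, with a paired log2 fold change of -0.037 and a 95% interval of -0.12 to 0.045 (adjusted p = 0.672).

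Itgb4, the hemidesmosome beta subunit, stood at 13.2, 18.3 and 9.39 CPM in knockout-labelled libraries and 10.3, 21 and 9.18 CPM in wild-type-labelled ones. The pairs gave 0.35, -0.20 and 0.032 on the log2 scale, and the paired value was 0.042, with a 95% interval of -0.16 to 0.24 and an adjusted p of 0.868. Both libraries numbered 2 were again high. Epithelial cells, where this subunit is best known, were looked for through 9 markers, which summed to 8.23 to 15.1 CPM in knockout-labelled libraries and 7.69 to 13.9 CPM in wild-type-labelled ones. Of the 9, 3 passed the filter and 0 were called, against 4.81% higher and 4.01% lower over all genes tested. With 3 genes tested, 0 calls are what such shares would mostly give. Krt18 ranged from 3.42 to 9.85 CPM in knockout-labelled libraries and from 2.85 to 8.31 CPM in wild-type-labelled ones, higher in 3 of 3 pairs (adjusted p = 0.19), and the other two, Krt19 and Cldn4, were at most 3.66 CPM. Krt14 had 0 reads in all libraries, and Epcam and Cdh1 had at most 3 reads in any. A long non-coding RNA on the opposite strand, B230344G16Rik, overlaps 7.66% of the Itgb4 exon bases.

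Itgb1, the beta subunit shared by the collagen, laminin and fibronectin receptors, varied least of the 10 over the libraries, with the highest 1.06 times the lowest. It stood at 2452, 2549 and 2500 CPM in knockout-labelled libraries and 2471, 2428 and 2396 CPM in wild-type-labelled ones. The groups overlapped, and the paired log2 fold change was 0.040, with a 95% interval of -0.042 to 0.12 and an adjusted p of 0.64.

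**Figure D3:**
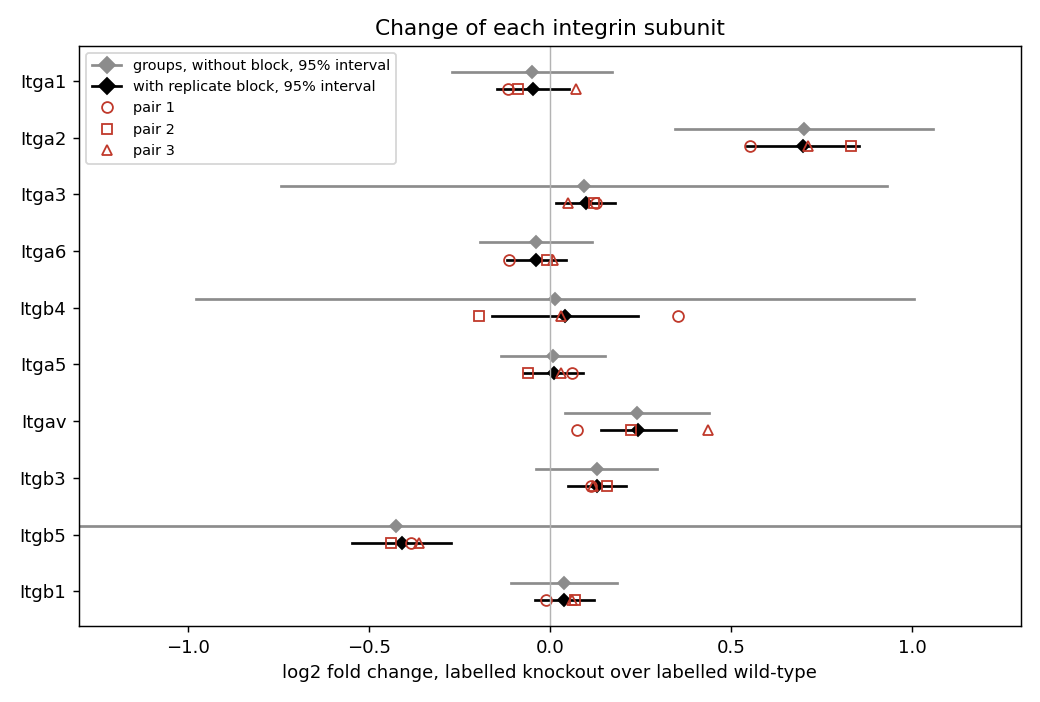
Log2 fold change of each subunit, knockout-labelled over wild-type-labelled libraries (x axis), from edgeR without the block (grey) and with the replicate block (black), with 95% intervals and the 3 pairs as open symbols. The grey interval of Itgb5, -3.39 to 2.54, runs past both edges of the plot, and the 3 pairs of Itga2 all lie above 0.5.

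Levels of different subunits were compared per kilobase of exon (CPM per kb). Itgb1 was highest, at 613 ± 11.9 in knockout-labelled libraries and 596 ± 9.14 in wild-type-labelled ones (SD, n = 3 each). Itga3 followed at 151 ± 45.3 (knockout label) and 141 ± 44.0 (wild-type label). Itga5 stood at 138 ± 0.516 (knockout label) and 137 ± 6.41 (wild-type label), and the library ranges of Itga3 and Itga5 overlapped. Itgb3 came next at 75.6 ± 3.54 (knockout label) and 69.1 ± 4.28 (wild-type label). Itga6 had 55.4 ± 1.503 (knockout label) and 56.9 ± 3.19 (wild-type label), and Itgav 36.6 ± 1.14 (knockout label) and 31.0 ± 3.20 (wild-type label), each of the 3 with a range over the 6 libraries apart from its neighbours.

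The 4 lowest subunits were Itgb5, Itga1, Itga2 and Itgb4, whose mean levels were 8.68 ± 9.45, 4.41 ± 0.226, 3.91 ± 0.644 and 1.94 ± 0.641 CPM per kb in knockout-labelled libraries and 11.6 ± 12.9, 4.56 ± 0.536, 2.40 ± 0.334 and 1.92 ± 0.930 CPM per kb in wild-type-labelled ones (SD, n = 3 each). Their ranges over libraries overlapped each with the next. The collagen-binding alpha subunits had lower levels than the other 4 alpha subunits in every library. With the length of the longest transcript in place of the exon length, Itga6 (118 CPM per kb over the 6 libraries) stood above Itgb3 (73.8), and the other places did not move. The levels did move: Itga1 rose from 4.49 to 7.61 CPM per kb, while Itga2 went from 3.15 to 3.17.

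Shares were taken per kilobase of exon, and their sizes depend on that choice of length. Within the 6 alpha subunits, Itga3 made up 42.7%, 29.4% and 42.3% of the summed level per kilobase in knockout-labelled libraries and 41.0%, 27.7% and 43.0% in wild-type-labelled ones. Itga5 made up 33.1% to 41.3% in knockout-labelled libraries and 33.2% to 44.2% in wild-type-labelled ones, with its highest share in each group in replicate 2. Itga2 made up 0.921%, 1.37% and 0.793% in knockout-labelled libraries and 0.658%, 0.789% and 0.509% in wild-type-labelled ones. Within the 4 beta subunits Itgb1 made up 86.9% to 88.4% in knockout-labelled libraries and 86.3% to 88.6% in wild-type-labelled ones. Itgb3 made up 10.03% to 11.6% in knockout-labelled libraries and 9.38% to 10.7% in wild-type-labelled ones. The Itgb3 to Itgb5 ratio was 28.2, 3.68 and 20.7 in knockout-labelled libraries and 20.0, 2.44 and 14.8 in wild-type-labelled ones, higher in the knockout-labelled library of each pair, while the groups overlapped (two-sided exact permutation p = 0.5). The ratio of Itgb1 to the summed alpha subunits overlapped between groups, at 1.45, 1.86 and 1.47 in knockout-labelled libraries and 1.53, 1.82 and 1.48 in wild-type-labelled ones.

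**Figure D4:**
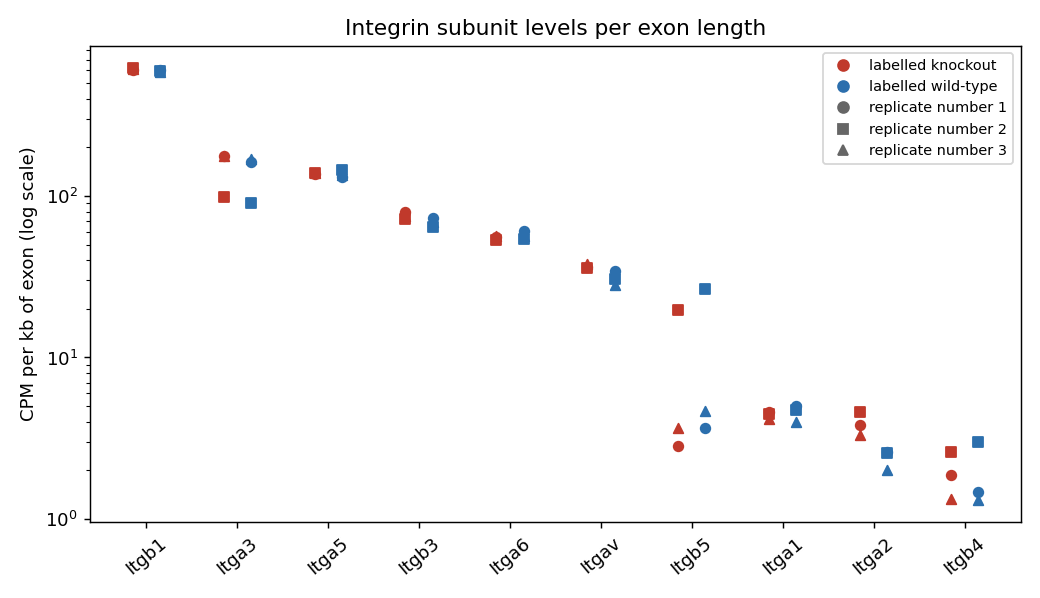
Level of each subunit per kilobase of exon in each library (y axis, CPM per kb on a log scale), with subunits ordered by their mean over the 6 libraries. Itgb1 lies between 587 and 625 in every library, and Itgb5 is highest and Itga3 lowest in the libraries numbered 2 (squares).

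Of 16 other integrin subunits, 7 passed the filter, and in the paired test 1 was called higher, 1 lower and 5 neither. Over all genes tested the shares were 4.81% higher and 4.01% lower. Itga4, the alpha subunit of a fibronectin and Vcam1 receptor, averaged 82.9 ± 23.6 CPM in knockout-labelled libraries and 72.7 ± 13.7 CPM in wild-type-labelled ones (SD, n = 3 each), a paired log2 fold change of 0.17 with an adjusted p of 0.0382. Itga11, a collagen receptor subunit of fibroblasts, averaged 3.35 ± 2.13 CPM in the knockout-labelled group and 5.77 ± 4.29 CPM in the wild-type-labelled group, with a log2 fold change of -0.76 and an adjusted p of 5.8e-04. Without pair 2, 0 of the 7 were called, and with scaling by library size alone 0 were higher. Calls over all genes also changed, from 613 higher and 511 lower to 339 and 205 without pair 2. With library size alone they were 471 and 734. The leukocyte subunits Itgb2, Itgam, Itgal and Itgax had at most 6 reads in any library. Of the 12 leukocyte markers, Tyrobp, Rac2 and Cd3e had 0 reads in all libraries, and Laptm5, called higher, made up nearly all of a sum of 114 to 228 CPM in knockout-labelled libraries and 83.6 to 191 CPM in wild-type-labelled ones.

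Genes that act with integrins inside the cell were counted by role. Of 9 tested activators, such as the talin Tln1 and the kindlin Fermt2, and of 6 tested inhibitors, such as Sharpin and the filamin Flna, 0 were called in either direction in the paired test. The smallest p-values among them were those of Tln2 (log2 fold change -0.21, adjusted p = 0.338) and Flna (0.079, adjusted p = 0.271). Of 30 tested genes of the adhesion complex, 1 was called higher and 0 lower, against 4.81% and 4.01% of all genes tested. The called gene, Nedd9, a docking protein, averaged 148 ± 9.25 CPM in knockout-labelled libraries and 134 ± 11.8 CPM in wild-type-labelled ones (SD, n = 3 each), a log2 fold change of 0.14 with an adjusted p of 0.0244. The median over the 30 was 0.0099. Without pair 2, 0 of the 30 were called, and with scaling by library size alone 0 were higher and 1 lower. Leaving out pair 2 lowered the calls over all genes as well, from 613 higher and 511 lower to 339 and 205. With library size alone they were 471 and 734. Of 10 genes for proteins that sit beside integrins in the membrane, 2 were called higher: the tetraspanin Cd82, at 217 ± 11.3 CPM (knockout label) and 184 ± 10.97 CPM (wild-type label; log2 fold change 0.24, adjusted p = 7.3e-05), and the caveola protein Cav1, at 3386 ± 475 CPM (knockout label) and 2920 ± 565 CPM (wild-type label; log2 fold change 0.22, adjusted p = 1.7e-04). Without pair 2, 1 was called.

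Matrix ligands were counted by the same classes as their receptors, beside 4.81% of all genes tested called higher and 4.01% lower in the paired test. Of 11 collagen genes, 1 was called higher and 4 lower in the paired test. Col5a2 was higher, at 582 ± 93.1 CPM in knockout-labelled libraries and 454 ± 60.1 CPM in wild-type-labelled ones (0.35, adjusted p = 3.6e-08). Those lower were Col6a2 (-0.33), Col6a1 (-0.27), Col1a1 (-0.33) and Col3a1 (-0.24), of which Col1a1 and Col3a1 are also fibroblast markers here. Each of these 4 was highest in both libraries numbered 2, as the fibroblast sum was. Col6a1 stood at 15.4, 108 and 37.4 CPM in knockout-labelled libraries and 17.3, 131 and 46.8 CPM in wild-type-labelled ones. The part of fibroblasts in these differences was not tested. The basement membrane collagens Col4a1 and Col4a2 were not called, with log2 fold changes of 0.063 and 0.019. Of 10 tested laminin chain genes, 2 were called higher, among them Lamb1 (0.14, adjusted p = 0.0192), and 1 lower, Lama2 (-0.59, adjusted p = 4.5e-04). Lama2 was also highest in both libraries numbered 2, at 14.3 CPM (knockout label) and 23.6 CPM (wild-type label), and at most 8.26 CPM in the others. Without pair 2, 0 laminin genes were called, while calls over all genes fell from 613 higher and 511 lower to 339 and 205. The median paired log2 fold change was -0.29 over the 11 collagens and 0.12 over the 10 laminin chains, beside -0.0033 over all genes tested.

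Of 14 tested genes listed as ligands of the RGD-binding receptors, 3 were called higher and 2 lower. The shares over all genes tested were 4.81% and 4.01%. The list was made by receptor class, and not every product on it was checked for an RGD motif. Fn1, which encodes fibronectin, averaged 21983 ± 2708 CPM in knockout-labelled libraries and 19456 ± 3009 CPM in wild-type-labelled ones (0.18, adjusted p = 0.0026). Thbs1, a thrombospondin, averaged 9145 ± 755 CPM (knockout label) and 7722 ± 230 CPM (wild-type label; log2 fold change 0.24, adjusted p = 7e-05). Tgfb1, whose latency peptide carries the RGD motif, averaged 141 ± 17.6 CPM (knockout label) and 127 ± 18.03 CPM (wild-type label; log2 fold change 0.16, adjusted p = 0.0138). Spp1, the gene for osteopontin, was lower (-0.29, adjusted p = 4.4e-06), and so was the fibrillin Fbn1 (-0.37, adjusted p = 0.0045). Both were highest in the libraries numbered 2, as the fibroblast sum was. Spp1 stood at 107, 733 and 326 CPM in knockout-labelled libraries and 129, 950 and 377 CPM in wild-type-labelled ones. Fbn1 stood at 12.2, 67.5 and 37.1 CPM (knockout label) and 14.8, 103 and 39.6 CPM (wild-type label). The part of fibroblasts in these differences was not tested. Without pair 2, 1 was called higher and 1 lower, while calls over all genes fell from 613 higher and 511 lower to 339 and 205.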

How the data were processed

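RNA of 6 libraries, 3 per label, was analysed. The authors deposited raw read counts per gene symbol, not normalised. Per the submitters' processing notes, the tools were STAR 2.6.1d, featureCounts (Subread 1.6.4), FastQC 0.11.8 and Trim Galore 0.6.4, with the builds GRCm38 and mm10. Annotation, strand setting and multi-mapping were not given in the sources. Per the labels' protocols, libraries came from either a non-stranded or a stranded TruSeq kit, not assigned to samples.

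Genes passing filterByExpr were scaled by TMM and compared with robust quasi-likelihood tests in edgeR 4.0.16 (R 4.3.3), with Benjamini-Hochberg adjustment over all genes tested. CPM used TMM-scaled library sizes, and lengths and positions came from GENCODE M21. DESeq2 1.42.0 and limma-voom (limma 3.58.1) were alternatives. All were run on counts simulated from the fitted block model. Such a run cannot show whether the pairing read from the data is right. Deviations from group means correlated at 0.776, 0.857 and 0.652 between same-numbered libraries, so same-numbered libraries were treated as pairs. No library was a repeat of another: chi-square per degree of freedom between libraries was 5.44 or more.

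The subunits and lists were chosen with earlier results of these data known. All subunits are named; of other lists, called genes with the smallest paired p (at most 6), or the 2 smallest otherwise, and of marker lists genes by level. A called gene is not reported here by name. Genes most like Itga2 followed a fixed correlation rule. Col4a1, Col4a2, Tln1, Fermt2, Sharpin and the leukocyte subunits were named for their roles.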

Additional observations from a re-analysis of the deposited data

How the results depend on the processing

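Without the block, Itga2, Itgav, Itgb3 and Itgb1 kept a positive sign under every alternative run. The replicate block called 3 subunits higher and 1 lower, and 613 and 511 of all genes. DESeq2 called 1 subunit higher, and 12 and 7 of all genes. In place of 1 gene lower, 0 were called by limma-voom, at an FDR of 0.01 and without both libraries numbered 2 (chosen after seeing the data), and 0 to 1 when 1 library was left out. Signs turned with library size alone for Itgb4 (-0.014) and Itga5 (-0.018), and, leaving out 1 library, for Itga1 (-0.14 to 0.021), Itga3 (-0.15 to 0.33), Itga5 (-0.019 to 0.043), Itga6 (-0.078 to 0.0067), Itgb4 (-0.26 to 0.48) and Itgb5 (-1.85 to 1.05); none of these passed.

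In the paired test, Itga2 and Itgb5 were called under every alternative run. DESeq2 called 1 subunit higher, and 262 and 111 of all genes; an FDR of 0.01 gave 388 and 259. Leaving out a pair gave 2 to 3 subunits higher and 1 lower, and 339 to 603 and 205 to 600 of all genes. Signs turned for Itga5 (-0.016 with library size alone; -0.017 to 0.044 without a pair) and Itgb4 (-0.11 to 0.21 without a pair). Library size alone moved the median of all genes to -0.03. The cause was not tested. The fewest reads, 162 to 442 per library, lay behind Itgb4.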
